A study of Mus musculus with 6 samples.

Results

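The MHC class I antigen presentation genes described here are 9 genes, matched by their mouse symbols among the 53801 gene identifiers that each count file lists. They are the heavy chains H2-K1 and H2-D1, the light chain B2m, the peptide transporter genes Tap1 and Tap2, the loading factor Tapbp, the transcriptional regulator Nlrc5, and the immunoproteasome subunits Psmb8 and Psmb9. They were listed by function and not by their values, though earlier results of these data were known. RNA-seq was performed on pieces of 6 tumours that had grown under the skin of adult male wild type C57BL/6 mice from injected cells of B16-F10, a single melanoma line of the same strain. For the SEVO group (n = 3 tumours) the cells had been primed with the volatile anaesthetic sevoflurane in culture before injection, while the cells for the CTRL group (n = 3 tumours) had not been primed. The hosts of both groups kept their own immune system, and the RNA was taken after growth in the animal. The comparison asks whether priming of the melanoma cells left a difference in these genes in the grown tumour.

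MHC class I molecules carry peptides from inside the cell to its surface, where CD8 T cells read them. The proteasome cuts the peptides, with Psmb8 and Psmb9 taking the place of the constitutive subunits Psmb5 and Psmb6 in cells that respond to interferon. The transporter made of Tap1 and Tap2 moves the peptides into the endoplasmic reticulum, where tapasin, the product of Tapbp, holds the empty class I molecule next to it, and Nlrc5 drives transcription of most of these genes. B16-F10 cells are known for a low basal level of class I molecules that interferon gamma can raise.

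H2-K1 and H2-D1 are close copies, which bears on how short reads can be told apart between them. Exon 4 of each encodes the α3 domain, the part of the heavy chain that CD8 touches. It is shown here from the GRCm38 reference, which is the C57BL/6 sequence, 5′ to 3′ in the direction of the gene, with the bases that differ between the copies in capitals. The H2-K1 exon lies at chr17:33997285-33997560 on the minus strand and the H2-D1 exon at chr17:35265784-35266059 on the plus strand.
H2-K1: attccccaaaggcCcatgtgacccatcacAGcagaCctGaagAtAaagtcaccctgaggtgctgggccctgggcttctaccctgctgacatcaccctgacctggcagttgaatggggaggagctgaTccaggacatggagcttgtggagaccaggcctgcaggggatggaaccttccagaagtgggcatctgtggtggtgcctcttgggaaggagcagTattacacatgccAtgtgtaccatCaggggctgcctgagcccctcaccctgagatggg
H2-D1: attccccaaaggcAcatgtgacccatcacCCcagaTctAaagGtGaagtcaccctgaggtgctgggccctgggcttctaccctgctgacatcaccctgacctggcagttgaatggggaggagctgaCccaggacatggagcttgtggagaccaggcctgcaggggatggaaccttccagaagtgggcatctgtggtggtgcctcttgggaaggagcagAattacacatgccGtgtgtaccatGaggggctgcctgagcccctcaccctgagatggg
Of 276 bases, 11 differed, so that the exons were 96.0% identical, with a longest identical run of 91 bases. Over all annotated transcripts, 333 of the 3457 different 50-base words of H2-K1 (9.63%) also occurred in transcripts of other genes, most of them in H2-Q10 with 179 words and H2-D1 with 141 words. For H2-D1 it was 331 of 2591 words (12.8%), led by H2-Q1 with 152 words. B2m shared 0 of its 811 words with another gene. A read that lies wholly within a shared stretch cannot be placed uniquely, so the low counts of both heavy chains leave such stretches out.

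The counted reads came to 723431 in the shallowest tumour and 1348676 in the deepest, which was 2.06% to 4.61% of the uniquely aligned reads. The predicted genes Gm10800 and Gm10801 took 1.31% to 49.0% of the counted reads, with CTRL 2 at the low end and CTRL 1 at the high end. The labels name monocytes as the cell type but a tumour as the source and melanoma as the tissue. All 8 melanoma markers were above the background defined in the next paragraph in every tumour, with 134 to 302 reads for the pigment cell gene Pmel and 4 to 32 reads for Mlana. Of 8 monocyte and macrophage markers, only Csf1r and Cd68 were, with 88 to 257 reads for Csf1r and 7 to 17 for Cd68. The macrophage gene Adgre1 had 0 reads in CTRL 2 and SEVO 2 and 1 to 9 elsewhere. Of the markers of T and NK cells 1 of 8 (Cd4) was above it in every tumour, with Cd3e at 0 reads in CTRL 2 and 1 to 8 reads elsewhere and Cd8a at 1 to 18 reads. None of 4 did in each of the leukocyte, B cell, neutrophil, endothelial and fibroblast lists, and the pan-leukocyte gene Ptprc had 2 to 26 reads. Among the first genes of these 5 lists were Coro1a with 3 to 10 reads, Ms4a1 with 0 to 9, S100a8 with 0 to 2, S100a9 with 0 to 2, Pecam1 with 3 to 32, Cdh5 with 1 to 10, Col1a1 with 1 to 29 and Col1a2 with 5 to 48. Of 4 erythroid markers Hbb-bs and Alas2 were above it, with 16 to 82 reads for Hbb-bs and 0 to 4 for Hba-a1. The libraries were described as melanoma tissue, since the paper's methods took RNA from pieces of tumour. All melanoma markers were above background, and most of the monocyte and macrophage markers were not.

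Background was read from 1458 protein-coding olfactory and vomeronasal receptor genes, which are made in sensory neurons and stand here for genes that a melanoma does not use. Levels are reads per kb of merged exons, without scaling for depth unless stated. The receptor genes held a mean of 1.30 reads per kb in CTRL 1, 0.0756 in CTRL 2 and 0.589 in CTRL 3, against 0.184 in SEVO 1, 0.210 in SEVO 2 and 0.397 in SEVO 3. A gene was called above background in a tumour where it exceeded the 95th percentile of the receptor genes of that tumour, which lay at 3.57, 0.413 and 1.89 reads per kb in CTRL 1 to 3 and at 0.956, 0.959 and 1.43 in SEVO 1 to 3. The limit was thus lowest in CTRL 2 and highest in CTRL 1. By this measure 3612 of 21967 protein-coding genes (16.4%) and 4 of the 1458 receptor genes (0.274%) were above background in all 6 tumours.

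Tapbp and B2m were above background in all 6 tumours, and the other 7 genes were not. H2-K1 was above it in 5 tumours, H2-D1 in 4, Psmb9 in 3 and Nlrc5 in 2, while Tap1, Tap2 and Psmb8 were above it in 0 of 6. By mean over the 6 tumours, not scaled for depth or background, the levels ran in the order Tapbp, B2m, H2-D1, H2-K1, Nlrc5, Psmb9, Tap1, Psmb8 and Tap2, with means of 8.22, 6.98, 2.33, 1.76, 1.57, 1.55, 1.19, 1.04 and 0.926 reads per kb. Without CTRL 1, the tumour with the highest background, Nlrc5 had a mean of 1.01 and lay below Psmb9 at 1.58, and Psmb8 and Tap2 came to 0.592 and 0.423. Neighbours in the order overlapped in every case in their range over tumours. The lowest Tapbp value, 4.69 reads per kb, was above the highest value of each gene except B2m. Among protein-coding genes, 92.7% had a lower mean than Tapbp and 91.7% a lower mean than B2m, while for Tap2 it was 44.2%. The counts behind these levels were small, from 21 reads summed over all tumours for Tap2 and Psmb8 to 179 reads for Tapbp.

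**Figure D1:**
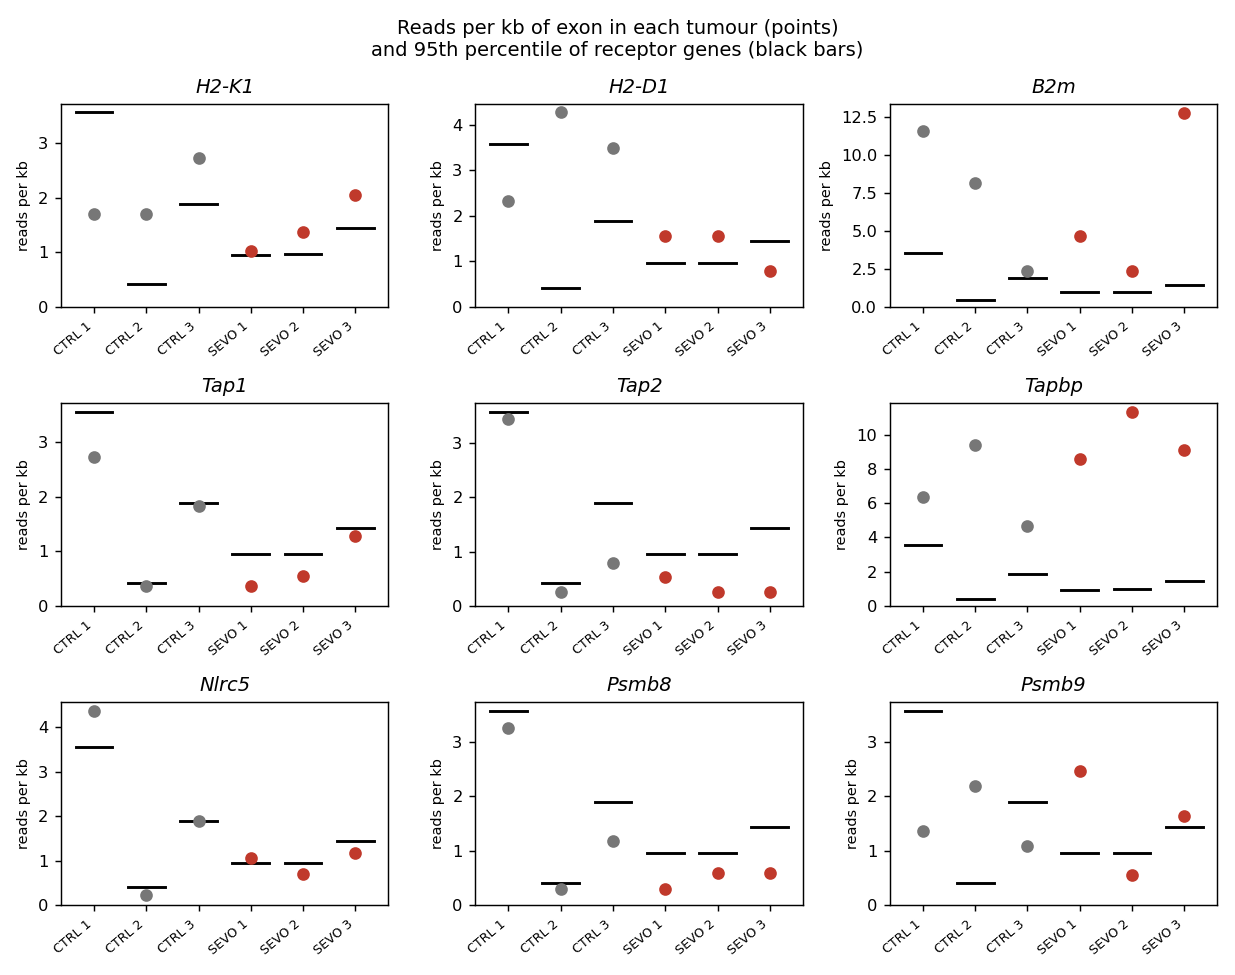
Each panel shows 1 gene, with reads per kb of exon on a linear axis from 0 and the 3 CTRL (grey) and 3 SEVO (red) tumours along the horizontal axis. Black bars mark the 95th percentile of the receptor genes in the same tumour. The Tapbp and B2m points lie above the bar in all 6 tumours and those of Tap1, Tap2 and Psmb8 below it in all 6.

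Between the groups, 0 of the 9 genes differed at an adjusted p under 0.05 by the edgeR quasi-likelihood test, with adjusted p-values from 0.741 to 0.958. The same held for all genes, with 0% called both of the 7561 kept by the filter on low counts and of the 42423 with at least 1 read. At the thresholds in the study's methods, which ask for an unadjusted p below 0.02 with a linear fold change of 1.5 or more, it was again 0 of 9, where the background over all genes was 1.04% of those kept by the filter and 0.627% of those with at least 1 read. Tapbp and Nlrc5 were kept by the filter, and the other 7 were read from the same fit on all genes with at least 1 read. At an unadjusted p under 0.05 the count of the 9 genes was 0 by edgeR and 0 by DESeq2. Over all genes, 330 of the 7561 kept by the filter and 1021 of the 42423 with at least 1 read passed it by edgeR. By DESeq2 it was 265 of 42422. By mean CPM, 8 of the 9 genes were lower in SEVO and 1, Tapbp, was higher. Most genes leaned the same way on that scale. In a fit with the library sizes behind the CPM, added after seeing the data, the median log2 fold change over all genes with at least 1 read was -0.96. Fitted log2 fold changes of the 9 genes were below 0 in 6 and above 0 in 3, since the fit on all genes has its own scaling and B2m and Psmb9 lay above 0 there. The median of the 9, with Tapbp and Nlrc5 from the filtered fit and the other 7 from the fit on all genes, was -0.66. The median was -0.02 over the genes kept by the filter and -0.38 over all genes with at least 1 read. In the fit on all genes Tapbp was at 0.79 and Nlrc5 at -0.50. With these values the middle of the 9 was that of Nlrc5, -0.50, beside -0.38 for all genes in that fit. In 1 of 9 genes, H2-D1, the groups did not overlap in normalised counts, where 5.59% of all genes with at least 1 read did not overlap in either direction. Normalised counts are CPM, read counts put on a common scale for library size with TMM. With 3 tumours in each group, the smallest two-sided p that an exact permutation test can reach is 0.1.

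**Figure D2:**
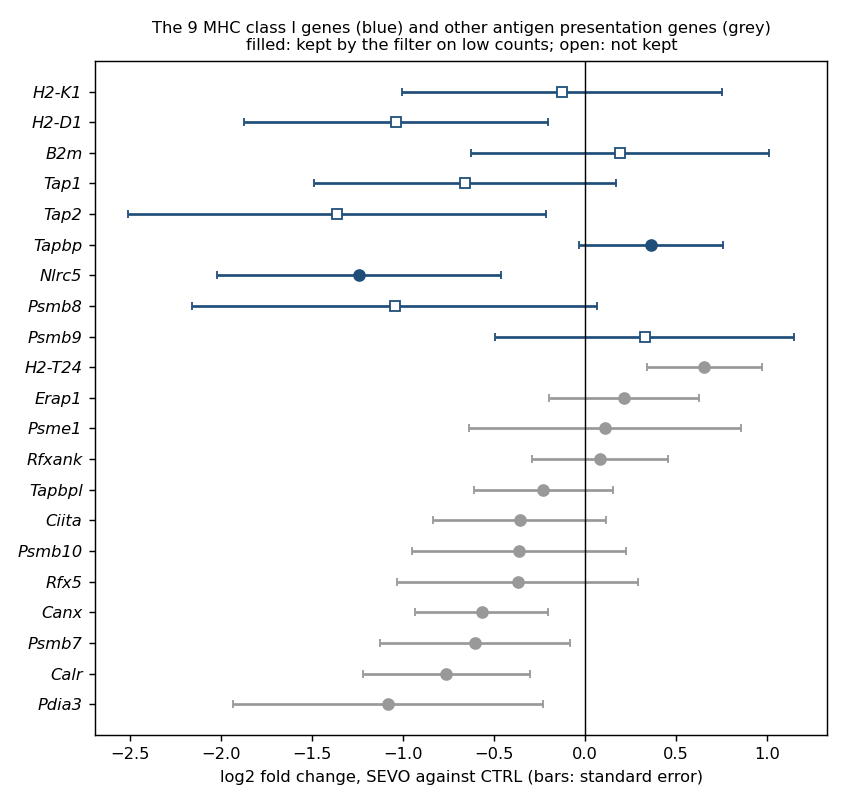
Points show the log2 fold change of SEVO against CTRL on the horizontal axis, with bars of 1 standard error, for the 9 genes (blue) and for the 12 other antigen presentation genes kept by the filter on low counts (grey). Filled points were kept by the filter and open points were not. The open points come from the fit on all genes, so filled and open points differ in scaling. Among the 9 genes, the values run from -1.36 for Tap2 to 0.36 for Tapbp, and 0 genes passed an adjusted p of 0.05. B2m and Psmb9 lie above 0 here but below 0 with the library sizes behind the CPM.

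H2-K1 and H2-D1 are the classical class I heavy chains of this strain, and B2m is the light chain that both need to fold. H2-K1 (ENSMUSG00000061232.15, chr17:33996017-34000347, minus strand, GRCm38) had 5, 5 and 8 reads in CTRL 1 to 3 and 3, 4 and 6 in SEVO 1 to 3. The groups overlapped, with a log2 fold change of -0.13 (SE 0.88, edgeR adjusted p = 0.958). Its level of 1.70 reads per kb was the same in CTRL 1 and CTRL 2, but it was 1.31 times the receptor mean in the former and 22.5 times in the latter. H2-D1 (ENSMUSG00000073411.11, chr17:35262730-35267499, plus strand) had 6, 11 and 9 reads in CTRL 1 to 3 and 4, 4 and 2 in SEVO 1 to 3. In CPM it was at 7.29, 13.8 and 10.3 in CTRL and at 4.60, 4.29 and 2.18 in SEVO, so that every CTRL tumour was above every SEVO tumour. The means were 10.5 ± 3.26 and 3.69 ± 1.32 CPM (SD, n = 3 each, exact permutation p = 0.1, the smallest possible). The fitted log2 fold change was -1.04 (SE 0.84, unadjusted p = 0.215, edgeR adjusted p = 0.793), so H2-D1 did not pass the test. It ran from -1.54 without CTRL 1 to -0.51 without CTRL 2. With the receptor density of each tumour as a covariate, added after the data were seen, it was -1.19 (edgeR unadjusted p = 0.055). CTRL 2, which had the most H2-D1 reads, was the lowest CTRL tumour in the summed CPM of the 4 leukocyte markers, with 11.3 against 60.7 in CTRL 1 and 28.7 in CTRL 3. The SEVO tumours had 13.8, 9.65 and 15.3. As a multiple of the receptor mean the same sum was highest in CTRL 2, with 4.57 against 1.48 in CTRL 1, 1.63 in CTRL 3 and 1.35 to 2.496 in SEVO, and the part of leukocytes in the H2-D1 values was not tested. In these bulk samples, fewer cells of a type and less RNA per cell cannot be told apart.

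B2m (ENSMUSG00000060802.8, chr2:122147686-122153083, plus strand) is the only one of the 9 outside chromosome 17 and chromosome 8. It had 10, 7 and 2 reads in CTRL 1 to 3 and 4, 2 and 11 in SEVO 1 to 3, and each group held a high and a low tumour. Per kb of its short transcript these were 11.6, 8.14 and 2.33 in CTRL and 4.65, 2.33 and 12.8 in SEVO. CTRL 3 was only just above the background limit of 1.89 reads per kb. The mean CPM was 7.74 ± 5.00 in CTRL and 6.25 ± 5.13 in SEVO (SD, n = 3 each), so SEVO was lower on that scale. The log2 fold change in the fit on all genes was 0.19 (SE 0.82, edgeR adjusted p = 0.955), and -0.30 when that fit used the library sizes behind the CPM. It also turned to -0.55 without SEVO 3 and -0.29 without CTRL 3, so no direction was drawn.

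Tapbp (ENSMUSG00000024308.14, chr17:33915899-33929292, plus strand) encodes tapasin, which helps class I molecules to exchange poor peptides for good ones. It had the most reads of the 9 genes, 23, 34 and 17 in CTRL 1 to 3 and 31, 41 and 33 in SEVO 1 to 3. In CPM these were 27.9, 42.6 and 19.5 in CTRL and 35.7, 44.0 and 36.0 in SEVO. CTRL 2 lay among the SEVO tumours and the other CTRL tumours lay below them. The means were 30.0 ± 11.7 and 38.5 ± 4.72 CPM (SD, n = 3 each, exact permutation p = 0.3). The fitted log2 fold change was 0.36 (SE 0.40, edgeR adjusted p = 0.786). Tapbp was 4.89 to 124 times the receptor mean, and it alone of the 9 was also above the 99th percentile of the receptor genes in all 6 tumours. It shared 149 exon bases on its own strand with Zbtb22, where a read cannot be given to a single gene.

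Tap1 (ENSMUSG00000037321.17, chr17:34187553-34197225, plus strand) and Tap2 (ENSMUSG00000024339.12, chr17:34203527-34216321, plus strand) encode the partner chains of the peptide transporter. Tap1 had 15, 2 and 10 reads in CTRL 1 to 3 and 2, 3 and 7 in SEVO 1 to 3. It was 1.98 to 4.83 times the receptor mean, yet it never passed the limit of the same tumour. The nearest was CTRL 3 with 1.83 reads per kb against a limit of 1.89. Tap2 had 13, 1 and 3 reads in CTRL 1 to 3 and 2, 1 and 1 in SEVO 1 to 3, so that most of its 21 reads came from CTRL 1. Its multiple of the receptor mean was 0.666 to 3.50. The log2 fold changes were -0.66 (SE 0.83, edgeR adjusted p = 0.812) for Tap1 and -1.36 (SE 1.15, edgeR adjusted p = 0.793) for Tap2, and Tap2 came to -0.43 without CTRL 1. In both genes the groups overlapped, and a difference was not detectable at this depth.

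Nlrc5 (ENSMUSG00000074151.13, chr8:94434356-94527272, plus strand) encodes the regulator that acts at class I promoters together with the RFX complex. It had 37, 2 and 16 reads in CTRL 1 to 3 and 9, 6 and 10 in SEVO 1 to 3. In CPM these were 44.9, 2.51 and 18.4 in CTRL and 10.4, 6.44 and 10.9 in SEVO, so that CTRL held both the highest and the lowest tumour. The means were 21.9 ± 21.4 and 9.23 ± 2.44 CPM (SD, n = 3 each, exact permutation p = 0.5). The fitted log2 fold change was -1.24 (SE 0.78, edgeR adjusted p = 0.741). As a multiple of the receptor mean Nlrc5 was 3.36, 3.11 and 3.20 in CTRL 1 to 3 and 5.75, 3.36 and 2.97 in SEVO 1 to 3. On this measure Tap1 ran from 1.98 to 4.83 and Psmb8 from 1.49 to 3.91. The fitted value leaned on single tumours, with -0.19 without CTRL 1 and -1.60 without CTRL 2. It also depended on the fit, with -0.50 without a filter, -0.70 by DESeq2 and -0.81 with library size alone. It stayed at -1.24 with the library sizes behind the CPM. Without CTRL 2, Nlrc5 passed the study's thresholds (unadjusted p = 0.010, edgeR adjusted p = 0.103). So did 1449 of the 8961 genes tested in that fit (16.2%). With the receptor density of each tumour as a covariate, an alternative added after the data were seen, Nlrc5 was at -0.13 (edgeR adjusted p = 0.957). With the same covariate in the fit on all genes, Tap1 was at -0.18, Psmb8 at -0.50 and H2-D1 at -1.19. The part of the background in these values was not tested. CTRL 1 was also highest in the summed CPM of the markers of leukocytes, T and NK cells, B cells, neutrophils, endothelium and fibroblasts. It was lowest in that of monocytes and macrophages, with 194 against 223 to 319 elsewhere. The latter sum leaned on Csf1r, which led its list in every tumour, with 88 reads in CTRL 1 and 165 to 257 elsewhere. Of the rest of that list, Adgre1, Cd68, Ly6c2, Ccr2 and Mrc1 had their most reads in CTRL 1, and Itgam and Lyz2 had not. As multiples of the receptor mean CTRL 1 was highest in none of these lists, and the part of these cells in the Nlrc5 values was not tested.

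**Figure D3:**
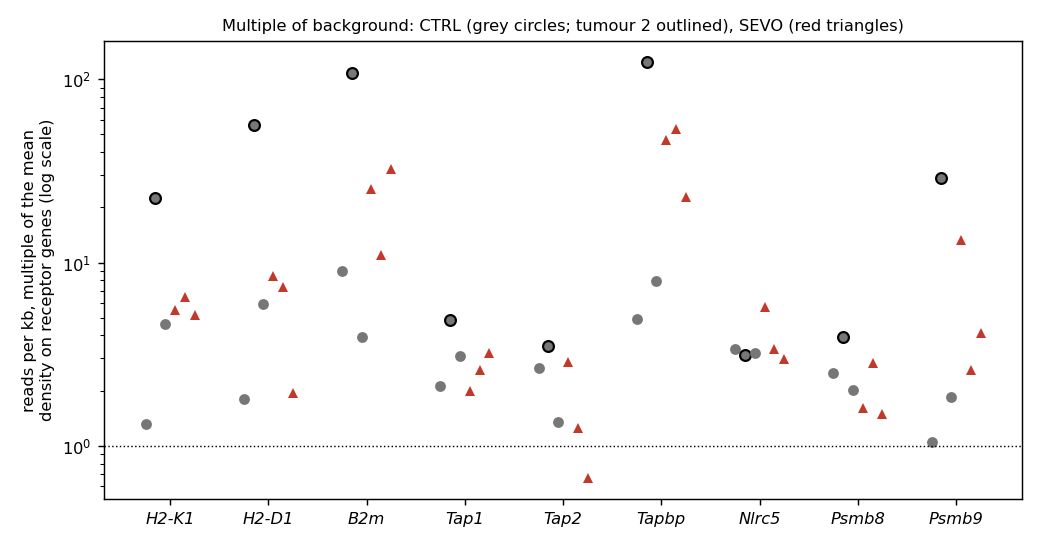
The vertical axis, on a log scale, gives reads per kb as a multiple of the mean of the receptor genes in the same tumour, for each of the 9 genes along the horizontal axis. Grey circles are CTRL tumours, with CTRL 2 outlined in black, and red triangles are SEVO tumours. Nlrc5 runs from 2.97 to 5.75 and Tap1 from 1.98 to 4.83, while Tapbp reaches 124 and B2m 108 in CTRL 2, the tumour with the lowest receptor density.

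Psmb8 (ENSMUSG00000024338.14, chr17:34197721-34201454, plus strand) and Psmb9 (ENSMUSG00000096727.2, chr17:34181987-34187764, minus strand) are catalytic subunits of the immunoproteasome and lie on either side of Tap1. Psmb8 had 11, 1 and 4 reads in CTRL 1 to 3 and 1, 2 and 2 in SEVO 1 to 3, again with CTRL 1 highest. Psmb9 had 5, 8 and 4 reads in CTRL 1 to 3 and 9, 2 and 6 in SEVO 1 to 3. Its highest tumours were SEVO 1 and CTRL 2, which were those with the lowest receptor densities, whereas Psmb8 was at its lowest count in both. The log2 fold changes were -1.04 (SE 1.11, edgeR adjusted p = 0.793) for Psmb8 and 0.33 (SE 0.82, edgeR adjusted p = 0.933) for Psmb9, with overlapping groups in both. The mean CPM of Psmb9 was 6.90 ± 2.82 in CTRL and 6.35 ± 4.11 in SEVO (SD, n = 3 each), and with the library sizes behind the CPM its log2 fold change was -0.12. Psmb8 came to -0.45 without CTRL 1, and Psmb9 changed sign to -0.35 without SEVO 1 and -0.11 without CTRL 1.

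The share of the inducible subunit within each proteasome pair, taken on reads per kb, was compared in 3 pairs, where the exact test cannot go below 0.1 and so could not pass 0.05. For Psmb9 with its constitutive partner Psmb6 it was 20.4%, 45.0% and 25.4% in CTRL 1 to 3 and 60.5%, 25.4% and 14.6% in SEVO 1 to 3. The means were 30.3% ± 13.0 and 33.5% ± 24.03 (SD, n = 3 each, exact permutation p = 0.9, adjusted over 3 pairs 0.9). For Psmb10 with Psmb7, the pair with the most reads, it was 61.3%, 55.1% and 48.6% in CTRL and 69.6%, 56.5% and 57.2% in SEVO, with means of 55.0% ± 6.37 and 61.1% ± 7.39 (SD, n = 3 each, exact permutation p = 0.4, adjusted 0.6). These shares are on merged exons. On coding exons alone the CTRL and SEVO means were 38.4% and 44.6% for Psmb10 and 46.2% and 47.8% for Psmb9. The level of a share thus depended on the exon length used, and which subunit of Psmb10 and Psmb7 was higher was not settled. Psmb10, the third inducible subunit, was above background in all 6 tumours with 63 reads, and so were Psmb6 with 45 and Psmb7 with 93. For Psmb8 with Psmb5 the share rested on 21 and 6 reads in all and ranged from 11.7% to 100% (exact permutation p = 0.3, adjusted 0.6). Psmb5 had 0 reads in SEVO 1 and SEVO 2, so the share of 100% there is set by a count of 0.

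The pathway was followed further in 41 other genes, among them non-classical class I genes, chaperones, proteasome subunits, interferon signalling, the RFX complex and class II genes. Of these, 12 were kept by the filter, 0 passed an adjusted p of 0.05, 0 passed the study's thresholds and 0 had an unadjusted p under 0.05 by edgeR. By DESeq2, 1 of 41, H2-T24, had an unadjusted p under 0.05 (DESeq2 adjusted p = 0.989). Over all genes, 265 of 42422 had one by DESeq2. By edgeR it was 330 of the 7561 kept by the filter and 1021 of the 42423 with at least 1 read. By mean CPM 32 of the 41 were lower in SEVO and 9 higher. With the library sizes behind the CPM, the median log2 fold change over all genes with at least 1 read was -0.96. Fitted values of the 41 were below 0 in 27 and above 0 in 14, with a median log2 fold change of -0.49 over both fits. In 10 of the 41 the level was above background in all 6 tumours, which were H2-T24, Tapbpl, Erap1, Calr, Canx, Psmb10, Psmb6, Psmb7, Irf1 and Rfxank. In 13 it was in none, and 7 genes had 3 reads or fewer in every tumour.

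The highest levels per kb among them belonged to H2-T24, a non-classical class I gene, Rfxank, a subunit of the RFX complex, and Calr, the chaperone calreticulin, with means of 55.9, 46.1 and 27.4 reads per kb. H2-T24 had 98.3, 127 and 99.8 CPM in CTRL 1 to 3 and 191, 147 and 174 CPM in SEVO 1 to 3. Every SEVO tumour was above every CTRL tumour, with means of 108 ± 16.0 and 171 ± 22.2 CPM (SD, n = 3 each, exact permutation p = 0.1). The log2 fold change was 0.66 (SE 0.32, unadjusted p = 0.059, edgeR adjusted p = 0.741), so it missed the threshold. H2-T24 thus lay in the other direction from the classical gene H2-D1, and neither passed the test. Rfxank held 1097 reads with a log2 fold change of 0.08 (SE 0.37). Calr had 98.3, 124 and 124 CPM in CTRL 1 to 3 and 34.5, 39.7 and 130 CPM in SEVO 1 to 3, with SEVO 3 apart from the other SEVO tumours. Its log2 fold change was -0.76 (SE 0.46, edgeR adjusted p = 0.741), and it was -1.59 without SEVO 3 (unadjusted p = 0.0012, edgeR adjusted p = 0.329), a fit in which 5.71% of all genes passed the study's thresholds. The summed CPM of the melanoma markers likewise was 639 and 783 in SEVO 1 and SEVO 2 but 1859 in SEVO 3, beside 1411 to 1459 in CTRL, and its part in the Calr values was not tested.

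Besides H2-T24, the lowest unadjusted p-values of the 41 belonged to a pair of sparsely counted non-classical genes, H2-M3 and H2-Q6. H2-M3, which presents formylated peptides, had 5, 0 and 2 reads in CTRL 1 to 3 and 0 in each SEVO tumour, so no fold was drawn from it (unadjusted p = 0.054, edgeR adjusted p = 0.793). H2-Q6 had 10, 0 and 2 reads in CTRL and 0, 1 and 0 in SEVO (unadjusted p = 0.097, edgeR adjusted p = 0.793). In both genes most reads came from CTRL 1. Groups did not overlap in CPM in 5 of the 41, beside 5.59% of all genes with at least 1 read. These were H2-T24 with SEVO higher and H2-K2, Psmb5, Psmb7 and Rfxap with CTRL higher, of which H2-T24 and Rfxap also did not overlap in raw reads. The share of all genes that did not overlap in raw reads was not counted, so nothing was drawn from the latter.

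Several of the 9 genes lie across from annotated transcripts on the other strand. Those facing Psmb8, Tap2 and Tapbp held more reads per kb than the genes themselves. Psmb8 faces Gm20496 (chr17:34199316-34205449, minus strand), an antisense transcript that covers 498 of its exon bases and 165 of Tap2. Gm20496 had 9, 35 and 9 reads in CTRL 1 to 3 and 32, 6 and 6 in SEVO 1 to 3, a mean of 24.4 reads per kb against 1.04 for Psmb8. Tap2 faces Gm15821 (chr17:34211312-34214459) over 533 bases. Gm15821 had 6, 46 and 22 reads in CTRL and 44, 13 and 26 in SEVO, a mean of 21.6 reads per kb against 0.926 for Tap2. Tapbp faces Gm19412 (chr17:33919279-33920485) over 904 bases, with 19, 40 and 30 reads in CTRL and 42, 43 and 44 in SEVO and a mean of 34.3 reads per kb against 8.22 for Tapbp. Each of the 3 transcripts was above the gene it faces in 6 of 6 tumours. The groups overlapped for Gm20496 (log2 fold change -0.01, SE 0.58, edgeR adjusted p = 0.994) and Gm15821 (0.04, SE 0.63, edgeR adjusted p = 0.981), and for Gm19412 it was 0.40 (SE 0.37, edgeR adjusted p = 0.763). CTRL 2 and SEVO 1 were the highest tumours for Gm20496 and Gm15821, as for Psmb9. Tap1 and Psmb9 share 212 exon bases on opposite strands, and Nlrc5 faces 9330175E14Rik over 78 bases, which had a mean of 1.35 reads per kb against 1.57 for Nlrc5. The strand setting of the counting was not given in the sources used here, so reads of a gene and of the transcript it faces cannot be told apart. Whether the setting suited the libraries was likewise not given, and its part in the small share of reads counted, and so in the level of every gene including B2m, H2-K1 and H2-D1, was not tested.

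**Figure D4:**
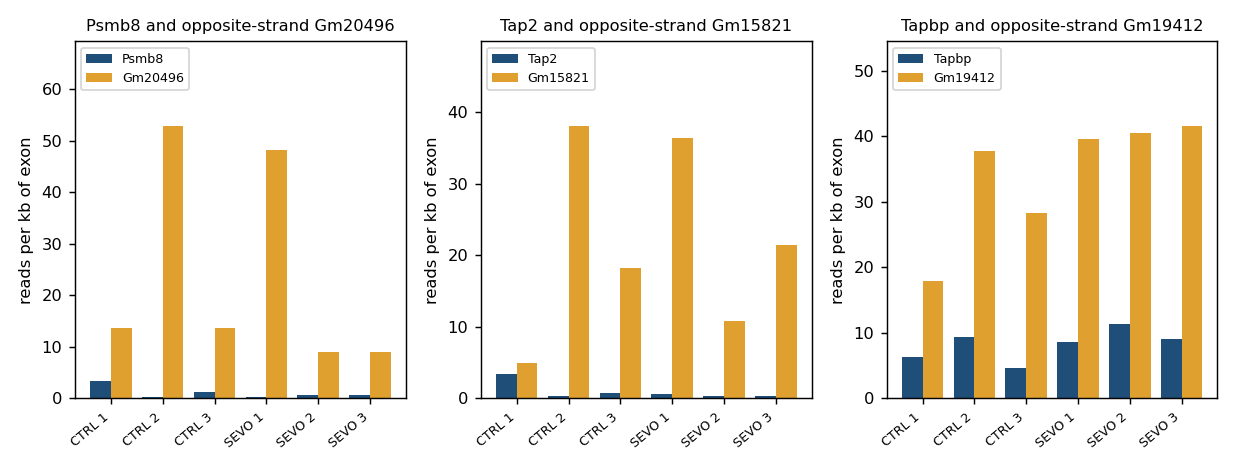
Bars give reads per kb of exon, on linear axes from 0, in each of the 6 tumours for Psmb8, Tap2 and Tapbp (blue) and for the annotated transcript on the opposite strand (orange). In all 6 tumours the orange bar is higher than the blue bar in each panel.

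The profile of the genes kept by the filter, the mean log2 CPM of Tapbp and Nlrc5 over the 6 tumours, was most like that of Prelp, Usf3, Ank1, Nefh and Arhgef18, with Pearson's r from 0.987 to 0.995. These are descriptions over 6 points that share library, depth and background, and the CPM of Nlrc5 varied more over them than that of Tapbp.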

How the data were processed

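RNA-seq libraries of 6 tumours were grouped by the treatment label. The authors removed ribosomal reads with SortMeRNA, trimmed with Trimmomatic 0.36, aligned to GRCm38 with STAR 2.6.0c and counted with HTSeq 0.9.1 on GENCODE release M17 (versions from the submitters' processing notes). The strand setting was not given in the sources used here. What the authors deposited is a raw count of reads for each gene, not normalized. Reads on no feature (27930688 to 41026677 per tumour) and ambiguous reads (3838 to 6114) were left out of library sizes.

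Identifiers were matched without version to GENCODE M21 (53706 of 53801), which gave names, positions, exon lengths and sequences on GRCm38. Genes were compared with the edgeR 4.0.16 quasi-likelihood test in R 4.3.3, with TMM scaling and filterByExpr and without a robust fit, adjusted by Benjamini-Hochberg over all tested genes. Genes not kept by the filter were read from the same fit on all genes with at least 1 read. DESeq2 1.42.0 (Wald test) was an alternative. Standard errors were derived from the F statistic. The common dispersion was 0.158. The fits were tested on simulated counts. The 9 genes, the lists and the rules were chosen with earlier results of these data known. Other genes were named by rank of level or p, as partners in a proteasome pair, as the first 2 of each marker list or by likeness of profile. The result of 1 marker gene is not reported here. Genes named as lying opposite, above background or not overlapping were chosen after their values were seen. Nothing states that the tumours came from separate cultures of primed cells, so p-values measure only the spread between these tumours. Alternatives changed the scaling, the filter, the tool, the background limit or the exon length, used the replicate number as a block, or left out each tumour.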

Additional observations from a re-analysis of the deposited data

How the results depend on the processing

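The count of 0 of the 9 genes at an adjusted p under 0.05 held under every alternative run. Of 118 values of these genes under alternatives, 109 kept their direction, 9 turned it and 0 passed an adjusted p of 0.05, and 6 genes kept their sign throughout. B2m turned to -0.0017 with DESeq2. With the library sizes behind the CPM in the fit on all genes, added after seeing the data, B2m turned to -0.30 and Psmb9 to -0.12. Over the fits that each left out 1 tumour, B2m ran from -0.55 to 0.60, H2-K1 from -0.54 to 0.051, H2-D1 from -1.54 to -0.51 and Psmb9 from -0.35 to 0.99. The difference in the Psmb9 share of its pair with Psmb6, 3.25 percentage points, ran from -10.3 to 12.7. Genes above background in all tumours numbered 1 (Tapbp) with the 99th percentile or with coding exons, and 2 to 3 when a tumour was left out, with H2-K1 added without CTRL 1. With a tumour left out, 0 to 1 of the 9 genes passed the study's thresholds. This was Nlrc5 without CTRL 2, where 16.2% of the genes kept by the filter passed. Of the 41 others 0 to 3 passed. They were H2-Q6 without CTRL 2, and Calr, Canx and Pdia3 without SEVO 3, where 5.71% of the genes kept by the filter passed. H2-Q6 was read from the fit on all genes, for which no share of genes passing was counted. The 41 were read from both fits, so no single share stands beside their count. With the background covariate, added after seeing the data, 2.51% of the genes kept by the filter and 1 of the 41 others (H2-T24) passed these thresholds. Over all genes, 79 passed them (8 higher in SEVO), against 60 (24 higher) with library size alone, 266 (100 higher) without a filter, 715 (7 higher) without a filter and with the library sizes behind the CPM, 190 with the background covariate, 49 by DESeq2 and 13 to 1449 with a tumour left out (1449 without CTRL 2). At an adjusted p under 0.05 it was 0 to 31 (31 without CTRL 2), and 1 with the library sizes behind the CPM. Scaling by library size alone moved the median of all log2 fold changes from -0.02 to 0.22. A filter of at least 10 reads in every tumour kept only Tapbp of the 9 genes. The causes were not tested.

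The deviations of same-numbered tumours from their group means correlated at -0.39, 0.32 and 0.08. Differently numbered tumours were not compared, so these values cannot decide whether the replicate numbers pair the tumours. With the number as a block, 1 gene passed an adjusted p of 0.05 and 129 passed the study's thresholds, none of them among the 9 genes, and Nlrc5 stood at -0.79. The 9 genes had 21 to 179 reads each over 6 tumours.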

Other observations

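6 further genes of the pathway lie opposite an annotated transcript that held more reads per kb in 6 of 6 tumours, found after the values were seen. Rfx5, a subunit of the RFX complex, had a mean of 2.46 reads per kb and B230398E01Rik opposite it 69.5. Irf1, an interferon-induced factor, had 2.43 and Gm17334 opposite it 33.4. For Psmb7 and the kinase gene Nek6 it was 4.53 and 117. For the proteasome activator gene Psme1 and Emc9 it was 4.15 and 29.5, and for H2-Q4 and Gm11131 it was 0.193 and 14.5. For the kinase gene Jak1 and Raver2 it was 1.55 and 4.70. The exon bases shared were 14 for Psme1 and 4 for Jak1, and 135 to 1471 for the others. The reverse was seen for the peptide-trimming gene Erap1, with 15.9 reads per kb against 3.98 for Cast opposite it, where Cast was higher in 0 of 6 tumours. Rfxank and Nr2c2ap were alike, with 46.1 and 50.6, and Nr2c2ap was higher in 4 of 6 tumours. Gm11131 had 37.6, 37.6 and 42.5 CPM in CTRL 1 to 3 and 85.1, 64.4 and 43.6 CPM in SEVO 1 to 3, and it was not called between the groups (log2 fold change 0.71).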
